A study of Arabidopsis thaliana with 5 samples.

Results

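Signals of 4 Arabidopsis thaliana genes of the cell wall and of cell expansion were followed over 5 arrays. The genes were EXO (AT4G08950), EXPA8 (AT2G40610), SKU5 (AT4G12420) and AT2G20870, which is described here as a cell wall protein gene. They were found by name among the probe sets that name 1 gene each, and 5 of the 8247 probe sets used named them: 1 each for EXO, EXPA8 and SKU5, and 2 for AT2G20870. These were 4 of the 3602 genes that had a probe set of their own. The genes had been picked with their signals on these same arrays known, so their values are a description and were not tested.

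The plant cell wall is a network of cellulose, hemicellulose, pectin and protein that has to yield for a cell to grow. Expansins such as EXPA8 are secreted proteins that loosen the wall without cutting its polymers. EXO (EXORDIUM) encodes an extracellular protein that promotes leaf cell expansion and is known as a brassinosteroid-induced gene. SKU5 encodes a glycoprotein held at the cell surface by a lipid anchor, related in sequence to multi-copper oxidases, and is known from mutants whose roots skew as they grow. CAMTA genes encode calmodulin-binding transcription activators, which link calcium signals to transcription.

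RNA from whole plants at growth stage 1.04 was hybridised to 1 array per group. The groups were the CAMTA.1.2 line, of Col-0 background, labelled as a T-DNA line of the T3 generation made in Columbia plants with the vector pROK2, the CAMTA.6.2 line, also of Col-0, labelled as a T3 line of the same vector with a single T-DNA that was still segregating, the CAMTA.1 line, of WS, for which no modification is labelled, the accession WS with no line named, and the accession Col-0 with no line named. All groups had a growth room at 65% humidity and 18 degrees, days of 16 h light and 8 h dark, and Gamborg's B-5 medium. The labels do not say how many plants went into an array, nor that the CAMTA.6.2 plants were homozygous.

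Values are intensities of 1 probe set on 1 array, scaled between arrays, and have no replicate. Signals at or under 18.1 were taken as a floor, and a difference of 2-fold or more, which is 1 on the log2 scale, was counted. The share of probe sets over the floor was 59.3% to 60.7% per array. The source names of the samples do not follow the accession and line names (the Col-0 array has KO1 in its source name and the CAMTA.6.2 array WSC), so each array is called here by its accession and line label. ECS1, whose transcript level is known to vary with accession, was at 4865 in CAMTA.1.2, 3545 in CAMTA.6.2 and 6832 in Col-0, against 39.1 in CAMTA.1 and 97.3 in WS. Of the 6 CAMTA genes, 2 were named by a probe set, with CAMTA4 under the floor on all 5 arrays and CAMTA5 between 15.5 and 21.7, so no targeted gene could serve as a check of the lines. The shoot and root marker genes of a whole plant were both found, 4 of 6 and 3 of 3 being named, with summed intensities of 7176 to 12882 and of 136 to 399. In RNA of whole plants, fewer cells of a type and less RNA per cell cannot be told apart.

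AT2G20870 had the widest range of the 4 genes. On its first probe set, the one with the higher mean signal, the intensity was 184 in CAMTA.1.2, 18.2 in CAMTA.6.2 and 16.3 in CAMTA.1, against 366 in WS and 681 in Col-0. On the second probe set it was 91.1 in CAMTA.1.2, 9.91 in CAMTA.6.2 and 15.2 in CAMTA.1, against 236 in WS and 439 in Col-0. On both probe sets all 3 lines lay below both accession arrays, and CAMTA.6.2 and CAMTA.1 lay at or about the floor.

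The signal of AT2G20870 was 3.71-fold lower in CAMTA.1.2 than in Col-0 by the first probe set and 4.81-fold lower by the second. In CAMTA.6.2 it was 37.5-fold lower than in Col-0 by the first probe set, and at least 24.2-fold lower by the second. In CAMTA.1 it was at least 20.2-fold lower than in WS by the first probe set, and at least 13.0-fold lower by the second. Its value of 18.2 in CAMTA.6.2 was barely above the floor, so the 37.5-fold is close to a bound and its size is uncertain. Against CAMTA.1.2, the other line of Col-0 background, the same value was 10.1-fold lower. The difference from Col-0 was also the lowest of the 4600 log2 differences measured above the floor on both arrays of that comparison. This rank rests on the scaling, since the deposited value in CAMTA.6.2 was 17.6, under the floor. Bounds are not ranked, so those of other genes and of the second probe set are left out.

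The WS array was 1.86-fold lower than the Col-0 array for AT2G20870 by the first probe set and 1.86-fold lower by the second, short of 2-fold on both. The CAMTA.1.2 array was close to 2-fold below the WS array by the first probe set, with a log2 difference of -0.99, and 2.59-fold below it by the second.

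**Figure D1:**
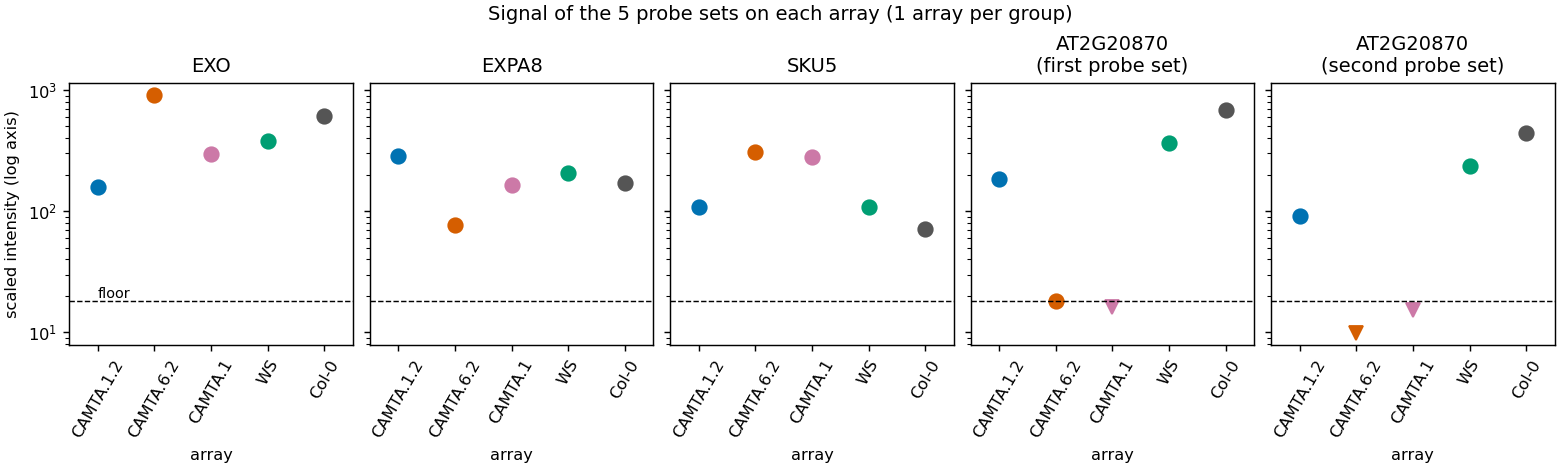
Scaled intensity, on a log axis, of the 5 probe sets on each of the 5 arrays, with 1 point per array and no replicates; the dashed line is the floor of 18.1 and triangles are values at or under it. AT2G20870 stood at 681 in Col-0 and at 18.2 in CAMTA.6.2, while SKU5 was highest in CAMTA.6.2 and CAMTA.1.

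SKU5 ran the other way. Its intensity was 108 in CAMTA.1.2, 310 in CAMTA.6.2 and 282 in CAMTA.1, against 108 in WS and 71.8 in Col-0. The CAMTA.6.2 and CAMTA.1 arrays were the highest, 1.10-fold apart from each other, and the CAMTA.1.2 and WS arrays were alike, with a log2 difference of 0.000615. SKU5 was 4.32-fold higher in CAMTA.6.2 than in Col-0 and ranked 28 among the higher of 4600 measured log2 differences, and it was 2.87-fold higher there than in CAMTA.1.2. In CAMTA.1 it was 2.62-fold higher than in WS, with rank 55 of 4663. In CAMTA.1.2 it was 1.50-fold higher than in Col-0, short of 2-fold.

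The order of the arrays for SKU5 was nearly the reverse of that for AT2G20870. Of the 10 pairs of arrays, 1 was in the same order for both genes by the first probe set of AT2G20870, and 0 by the second. That 1 is the pair CAMTA.6.2 and CAMTA.1, which cannot be ordered for AT2G20870. The log2 difference of AT2G20870 in this pair was 0.0059 by the first probe set, with CAMTA.1 under the floor. By the second probe set both arrays were at the floor. For both genes CAMTA.6.2 and CAMTA.1, which differ in accession and have different control arrays, lay together, and CAMTA.1.2 lay nearer to the accession arrays. This grouping was not particular to the 2 genes. Of all 8247 probe sets, 4.79% were 2-fold apart between CAMTA.6.2 and CAMTA.1. The share for CAMTA.6.2 was 7.64% against Col-0, 8.00% against CAMTA.1.2 and 9.28% against WS. For CAMTA.1 it was 6.12% against WS, 7.87% against CAMTA.1.2 and 8.06% against Col-0. The arrays CAMTA.1.2, WS and Col-0 were closer to each other still. Their shares were 1.93% for CAMTA.1.2 against Col-0, 4.37% for CAMTA.1.2 against WS and 4.15% for WS against Col-0.

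RNA quality and marker values were set beside this pattern. The 3'/5' signal ratio of the ubiquitin control probe sets was 3.57 in CAMTA.6.2 and 3.32 in CAMTA.1, against 2.68 in CAMTA.1.2, 2.28 in WS and 2.64 in Col-0. The GAPDH ratio did not follow it, with 1.78 in CAMTA.6.2, 1.29 in CAMTA.1, 1.94 in CAMTA.1.2, 1.38 in WS and 1.64 in Col-0. The summed intensity of the 4 shoot markers was 10570 in CAMTA.1.2, 12882 in CAMTA.6.2 and 10834 in CAMTA.1, against 7176 in WS and 9232 in Col-0. The summed intensity of the 3 root markers was 136 in CAMTA.1.2, 354 in CAMTA.6.2 and 399 in CAMTA.1, against 339 in WS and 168 in Col-0. Both sums were higher in CAMTA.6.2 and CAMTA.1 than on their control arrays, but not every marker was. Of the shoot markers, the photosystem genes LHB1B2 and PSAE-1 had log2 differences of 2.35 and 1.02 in CAMTA.6.2 against Col-0 and of 2.29 and 0.84 in CAMTA.1 against WS. The carbon fixation genes PRK and RCA had log2 differences of -0.65 and -0.14 in CAMTA.6.2 and of -0.21 and 0.20 in CAMTA.1. Of the root markers, AT3G01190, AT4G26010 and AT5G17820 had log2 differences of 1.55, at least 1.03, and 0.95 in CAMTA.6.2, and of 0.13, -0.49 and 0.41 in CAMTA.1. No marker was at 0, although the root peroxidase gene AT4G26010 was under the floor in CAMTA.1.2 and Col-0. The part of RNA quality or of plant organs in the values of SKU5 and AT2G20870 was not tested.

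EXO was lowest in the line CAMTA.1.2. Its intensity was 157 in CAMTA.1.2, 909 in CAMTA.6.2 and 296 in CAMTA.1, against 378 in WS and 607 in Col-0. All 5 values were well above the floor. In CAMTA.1.2 EXO was 3.86-fold lower than in Col-0, rank 10 among the lower of 4636 measured log2 differences. In CAMTA.6.2 it was 1.50-fold higher than on the same Col-0 array, and in CAMTA.1 it was 1.28-fold lower than in WS, both short of 2-fold. The lines CAMTA.1.2 and CAMTA.6.2 thus held the lowest and the highest signal of EXO, 5.78-fold apart. CAMTA.1.2 and CAMTA.1, whose names share a number, differed by 1.88-fold, and EXO in WS was 1.61-fold lower than in Col-0. Against CAMTA.1.2 in place of Col-0, EXO in WS was higher, by 1.26 on the log2 scale.

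EXPA8 showed the smallest range, 3.66-fold from highest to lowest. Its intensity was 284 in CAMTA.1.2, 77.7 in CAMTA.6.2 and 164 in CAMTA.1, against 207 in WS and 171 in Col-0. All 4 pairs of arrays that were 2-fold apart for EXPA8 included CAMTA.6.2. In CAMTA.6.2 the gene was 2.20-fold lower than in Col-0, rank 212 among the lower of 4600 measured log2 differences, and it fell just short of 2-fold, at -0.996 in log2, with a pseudocount of 16 in place of the floor. In CAMTA.1.2 EXPA8 was 1.66-fold higher than in Col-0, and in CAMTA.1 it was 1.26-fold lower than in WS. The arrays with the most and the least EXPA8 were those with the least and the most EXO, and 2 of the 10 pairs of arrays were in the same order for both genes. The 4 genes therefore did not move as a group, and no line had all of them higher or all of them lower than its control array.

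**Figure D2:**
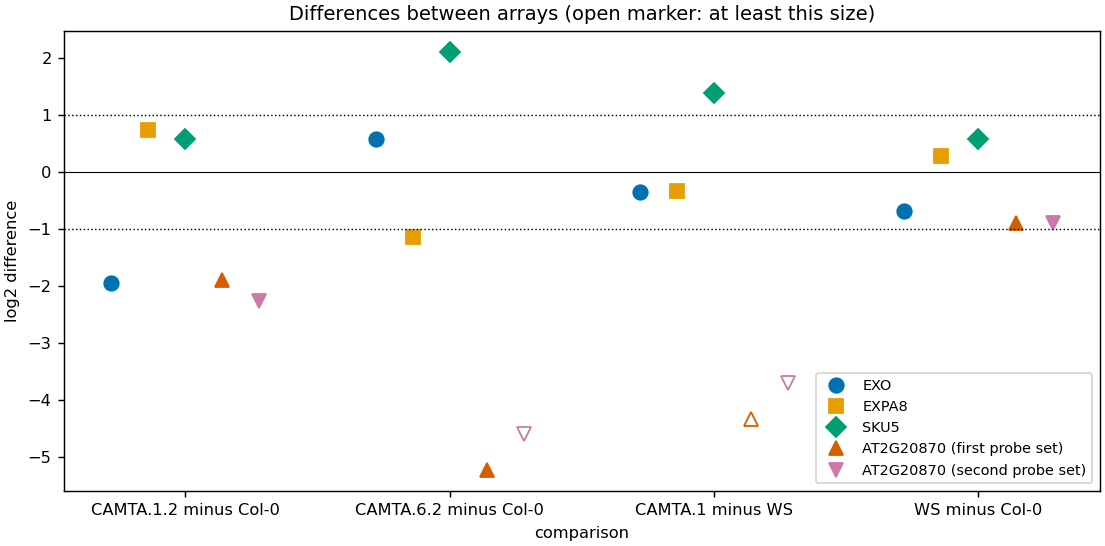
Log2 differences of the 5 probe sets in the 4 comparisons, 1 array against 1 array; dotted lines mark 2-fold and open markers are bounds. AT2G20870 was below -1 in all 3 lines, SKU5 above 1 in CAMTA.6.2 and CAMTA.1, and EXO below -1 in CAMTA.1.2 alone.

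The 4 genes were also counted in each comparison. In CAMTA.1.2, EXO and AT2G20870 were at least 2-fold lower than in Col-0, 2 of the 4 genes, against 1.53% of all 8247 probe sets, and 0 were higher, against 0.4%. In CAMTA.6.2 SKU5 was at least 2-fold higher than in Col-0, against 3.47% of all probe sets, and EXPA8 and AT2G20870 were lower, against 4.17%. In CAMTA.1 SKU5 was at least 2-fold higher than in WS, against 2.41% of all probe sets, and AT2G20870 was lower, against 3.71%. These shares are given as background and nothing is read from them, since the genes were picked on the same signals.

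Between the accessions none of the 4 genes was 2-fold apart, while 1.59% of all probe sets were higher and 2.56% lower in WS than in Col-0. The median log2 difference of the 4 genes was -0.65 in CAMTA.1.2, -0.28 in CAMTA.6.2 and -0.34 in CAMTA.1, each against its control array, and -0.20 in WS against the Col-0 array. The medians of the 5635 probe sets above the floor on any array were 0, 0.016, 0.054 and 0 in the same order. With genes on both sides of 0, the median describes none of the 4 well. The comparisons of CAMTA.1.2, CAMTA.6.2 and WS share the Col-0 array, so a departure of that array would enter all of them.

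**Figure D3:**
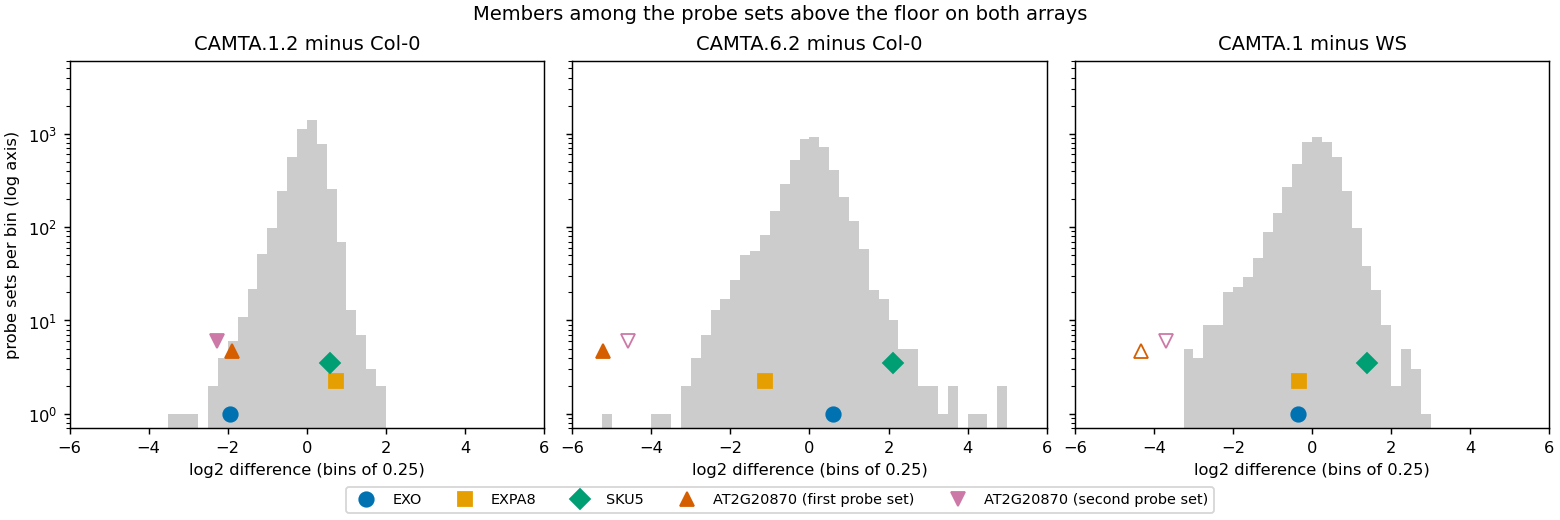
Grey bars count the probe sets above the floor on both arrays by log2 difference, in bins of 0.25 and on a log axis, for the 3 lines. Coloured markers place the 5 probe sets along the horizontal axis only, with open markers for bounds. The first probe set of AT2G20870 was the lowest of those counted in CAMTA.6.2, where its value was barely above the floor. The bounds of AT2G20870 lay below every bar in CAMTA.1. Probe sets at the floor on either array are not in the bars, so bounds of other genes are not shown.

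Few related wall genes were found by name. Of the 8247 probe sets, 4383 named no gene, so the array may hold more of them. The lists covered expansins, exordium proteins, SKU5-like proteins, xyloglucan endotransglucosylase/hydrolases, cellulose synthesis genes and pectin enzymes. They held 26 genes with a probe set of their own, EXO, EXPA8 and SKU5 among them. Under cellulose synthesis they held only cellulose synthase-like genes and COB, and no cellulose synthase (CESA) gene. Of the other 23 genes, 7 were at the floor on all 5 arrays and 6 were above it on all 5. Of these 23, 2 were at least 2-fold lower and 0 higher in CAMTA.1.2 than in Col-0, where 1.53% and 0.4% of all probe sets were. In CAMTA.6.2, 1 was higher and 1 lower than in Col-0, against 3.47% and 4.17% of all probe sets. In CAMTA.1, 0 were higher and 1 lower than in WS, against 2.41% and 3.71%. Both arrays of the comparison were at the floor for 11 of the 23 in CAMTA.1.2, 11 in CAMTA.6.2 and 8 in CAMTA.1, where no difference could be seen. The medians of the other 12, 12 and 15 genes were -0.090, 0.25 and 0.19 in log2 difference, in the same order. No brassinosteroid gene of the lists was named by a probe set of its own, so the pathway that induces EXO was not analysed here. The search by symbol and synonym for wall structural proteins found no gene. It did not return AT2G20870 either, so it can miss such genes.

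Among the 7 expansin genes, EXPA8 was the one 2-fold apart in CAMTA.6.2. EXPA4 and EXPA15, alpha-expansin genes like EXPA8, were above the floor on all arrays. EXPA4 was at 124 in CAMTA.1.2, 200.0 in CAMTA.6.2 and 178 in CAMTA.1, against 227 in WS and 174 in Col-0. EXPA15 was at 125 in CAMTA.1.2, 141 in CAMTA.6.2 and 131 in CAMTA.1, against 145 in WS and 100.0 in Col-0. Neither followed EXPA8, which was lowest in CAMTA.6.2, and neither reached 2-fold in a line. EXPB1, a beta-expansin gene, had log2 differences of 0.51 in CAMTA.1.2 and 0.46 in CAMTA.6.2 against Col-0, and of 0.02 in CAMTA.1 against WS, on the probe set with the higher mean signal. On its other, weaker probe set they were at least 0.15, at least 0.46 and -0.34, in the same order. EXLA2, an expansin-like gene, was under the floor in CAMTA.1.2 and at 36.3 in Col-0, at least 2.00-fold lower.

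Of the genes related to SKU5, sks16 and sks15 (SKU5 similar 16 and 15) gave weak signals. sks16 was at 30.1 in CAMTA.1 and 18.8 in WS, and under the floor on the other 3 arrays. sks15 was at 22.9 in CAMTA.1 and under the floor on the other 4. Their highest value was in CAMTA.1, where SKU5 was at 282, but both were under the floor in CAMTA.6.2, where SKU5 was highest. COB (COBRA), whose product is also anchored at the cell surface by a lipid and is needed for oriented cell expansion, was at 542 in CAMTA.6.2 and 529 in CAMTA.1, against 362 in CAMTA.1.2, 320 in WS and 328 in Col-0. Its highest signals were on the same 2 arrays as those of SKU5, with log2 differences of 0.73 in CAMTA.6.2 against Col-0 and 0.73 in CAMTA.1 against WS, both short of 2-fold.

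The cellulose synthase-like genes that reached 2-fold in a line were all near the floor. CSLC5, of a family that makes the xyloglucan backbone, was under the floor in CAMTA.1.2 and at 23.6 in CAMTA.6.2, against 52.8 in Col-0, a log2 difference of at least 1.55 downward in the first and of -1.16 in the other. CSLA03, of a family that makes mannans, was at 37.9 in CAMTA.6.2 and under the floor in Col-0, at least 2.09-fold higher. CSLB03 was under the floor in CAMTA.1 and at 50.7 in WS, at least 2.80-fold lower. Of the 6 xyloglucan endotransglucosylase/hydrolase genes, whose products cut and rejoin xyloglucan, 3 were at the floor on all arrays, 1 was above it on 1 array and 2 on all 5. None of the 3 above the floor on any array was 2-fold apart in a line. EXGT-A3, another name of XTH27, was at 470 in CAMTA.1.2, 701 in CAMTA.6.2 and 460 in CAMTA.1, against 519 in WS and 570 in Col-0. The 2 pectin enzyme genes were under 2-fold in every line, on probe sets at or close to the floor.

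**Figure D4:**
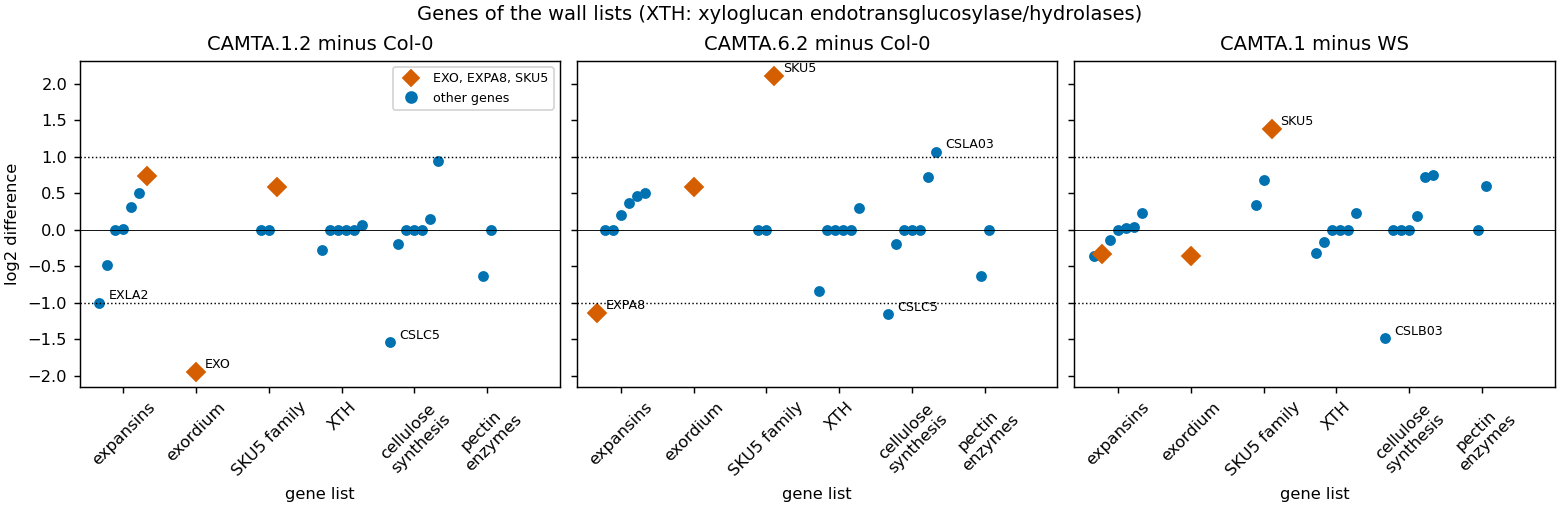
Log2 differences of the 26 genes of the wall lists in the 3 lines, 1 point per gene, with EXO, EXPA8 and SKU5 as diamonds, dotted lines at 2-fold and names where 2-fold was reached. The list marked cellulose synthesis held cellulose synthase-like genes and COB only. Many points lie at 0 because both arrays were at the floor.

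The genes most like each of the 4 were sought over the 5 arrays, as the smallest root mean square distance between log2 values centred on the gene's own mean, among 2309 other named genes above the floor on any array. This distance is not scaled for a gene's range. It tends to grow with the range, so its size does not compare the patterns of the 4 genes. Since the nearest genes were sought for likeness, sharing a highest or lowest array with a member largely follows from the search. EXPA8, the gene of the smallest range, had the smallest distances. Its nearest genes were CTF2A at 0.15, AT2G36950 at 0.17, AT2G26690 (NPF6.2, of a family of nitrate and peptide transporters) at 0.17, the cytochrome P450 gene CYP71B28 at 0.20 and AT2G01680 at 0.22. All of these were lowest in CAMTA.6.2, as EXPA8 was. CTF2A, for example, was at 85.3 in CAMTA.1.2, 27.3 in CAMTA.6.2 and 46.3 in CAMTA.1, against 61.8 in WS and 62.8 in Col-0.

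SKU5 was nearest to AT4G28780 at 0.24, AT1G09750 at 0.29, AT4G36850 at 0.31, AT2G32880 at 0.32 and AT4G23820 at 0.33. AT4G28780 was at 31.3 in CAMTA.1.2, 98.1 in CAMTA.6.2 and 97.3 in CAMTA.1, against 30.0 in WS and 31.7 in Col-0. AT1G09750 was at 479 in CAMTA.1.2, 914 in CAMTA.6.2 and 914 in CAMTA.1, against 419 in WS and 369 in Col-0. All 5 had their highest signals in CAMTA.6.2 and CAMTA.1. AT4G36850 and AT2G32880 were under the floor on 2 arrays and 1 array, so their distances rest partly on the floor.

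EXO was nearest to AT1G23030 at 0.29, AT1G30700 at 0.37, AT4G37240 at 0.41, AT1G30870 at 0.42 and AT1G23680 at 0.42. AT1G23030 was at 19.3 in CAMTA.1.2, 69.9 in CAMTA.6.2 and 30.4 in CAMTA.1, against 31.1 in WS and 43.7 in Col-0. All 5 were lowest in CAMTA.1.2 and highest in CAMTA.6.2, with signals between 18.0 and 113. AT1G30700, at 18.0, was just under the floor in CAMTA.1.2, so its distance rests partly on the floor.

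AT2G20870, the gene of the widest range, had the largest distances. Its nearest genes were AT4G21650 at 1.01, LHCB4.3, a light-harvesting protein gene of photosystem II, at 1.06, AT3G21670 (NPF6.4) at 1.10, the sucrose-phosphate synthase gene ATSPS4F at 1.10 and the chitinase gene CHI at 1.20. These 5 were also lowest in CAMTA.6.2 and CAMTA.1, but their ranges were smaller on the floored scale, 5.74-fold to 8.48-fold, against 37.6-fold for the first probe set of AT2G20870. All of these ranges except those of AT4G21650 and LHCB4.3 have a lowest value under the floor and are bounds. LHCB4.3 was at 218 in CAMTA.1.2, 51.1 in CAMTA.6.2 and 48.4 in CAMTA.1, against 199 in WS and 356 in Col-0. The distance between the 2 probe sets of AT2G20870 itself was 0.40. These likenesses are a description over 5 arrays, on each of which all genes share 1 RNA sample, the scaling and the floor.

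**Figure D5:**
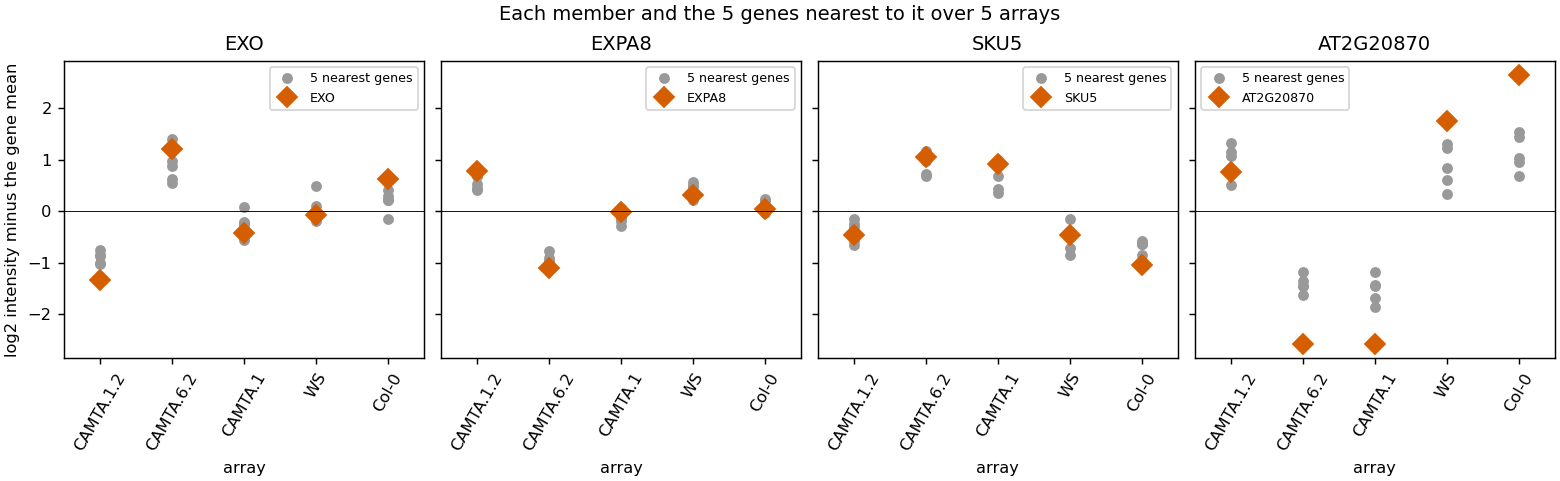
Log2 intensity minus the gene's own mean on each of the 5 arrays, for each of the 4 genes (diamonds) and the 5 genes nearest to it (grey points). The grey points lie close to EXPA8 and well inside the range of AT2G20870.

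Few neighbouring genes in the TAIR10.1 gene order were measured. Of the 5 protein-coding genes on each side, 1 had a probe set of its own beside EXO, 4 beside EXPA8, 2 beside SKU5 and 1 beside AT2G20870, and none was 2-fold apart in a line. With so few genes, nothing is read from this count. AT2G20830, the one measured near AT2G20870 and 5 genes away from it, had log2 differences of -0.15 in CAMTA.1.2, -0.77 in CAMTA.6.2 and -0.31 in CAMTA.1. AT2G40620, next to EXPA8, was at 79.0 in CAMTA.6.2 and 47.7 in Col-0, and at 85.2 in CAMTA.1 and 44.8 in WS. Its log2 differences were 0.73 in CAMTA.6.2 and 0.93 in CAMTA.1, where those of EXPA8 were -1.14 and -0.34. Both measured neighbours of SKU5 were at the floor on all arrays.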

How the data were processed

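RNA of whole plants was measured on 1 one-colour array per group, 5 arrays in all; TRIzol was used for extraction and the cRNA carried biotin, per the labels' protocols. The authors deposited 1 linear intensity for each probe set on each array, brought to a 2% trimmed mean of about 100.1 to 100.2 on each array. The summary method for probes is not named by the labels or the table. Groups came from the accession and line labels.

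Of 8297 probe sets, 50 controls were left out. The floor was the 40th percentile of all values, 18.1. Arrays were brought to equal median log2 signal over the 4245 probe sets that exceeded the floor everywhere, lower values were then raised to the floor, and log2 differences were taken. A fold against the floor is a bound. With 1 array per group there is no test, no p-value and no estimate of the spread, and precision is limited by the number of arrays. No 2 arrays held identical values.

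Names came from the platform annotation, updated by gene ID to the TAIR10.1 gene table (names and gene order only); 3794 probe sets named 1 gene, 70 several and 4383 none. Where probe sets shared a gene, the one of highest mean signal was used, and both are given for AT2G20870 and EXPB1. Named genes were the 4 members, list genes at 2-fold in a line (at most 4 per list and comparison), the 5 nearest genes of each member and the CAMTA genes. EXPA4, EXPA15, EXPB1, EXGT-A3, COB, sks15, sks16, ECS1, AT2G20830, AT2G40620 and the marker genes were named outside that rule, after their values were seen. The members and lists were chosen with earlier results of these data known. Alternatives were other scalings, floors, a pseudocount of 16, the CAMTA.1.2 array in place of the Col-0 array and the other probe set. The steps were tested on simulated data. Python 3.11.15, numpy 2.4.6, pandas 2.3.3 and matplotlib 3.10.9 were used.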

Additional observations from a re-analysis of the deposited data

Results flagged for a closer look

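EXO and EXPA8 went opposite ways in the lines CAMTA.1.2 and CAMTA.6.2, each set against the same Col-0 array. EXO had a log2 difference of -1.95 in CAMTA.1.2 and of 0.58 in CAMTA.6.2. EXPA8 had a log2 difference of 0.74 in CAMTA.1.2 and of -1.14 in CAMTA.6.2. With 1 array per line neither difference between the lines was tested, and the values of 0.58 and 0.74 are short of 2-fold.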

How the results depend on the processing

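No paired analysis was possible because each group had 1 array, and for the same reason no array could be left out of a group. Under 5 other scalings and floors, every member at 2-fold stayed there with its direction, except EXPA8 in CAMTA.6.2, which was at -0.996 with a pseudocount of 16 and no floor, and no other member reached 2-fold. AT2G20870 stayed between -2.27 and -1.80 in CAMTA.1.2, -5.24 and -3.34 in CAMTA.6.2 and -4.49 and -3.06 in CAMTA.1 over all its alternatives, the second probe set included. With the CAMTA.1.2 array in place of the Col-0 array, EXO in CAMTA.6.2 reached 2.53 and SKU5 was at 1.52. With the same exchange, EXO in WS turned to 1.26, which made 1 gene 2-fold apart between accessions, and EXPA8, SKU5 and AT2G20870 in WS changed sign, at -0.46, -0.000615 and 0.99.

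The counts of all probe sets 2-fold apart depended on the floor. With the floor at the 20th percentile they were 506 for CAMTA.1.2, 1089 for CAMTA.6.2, 909 for CAMTA.1 and 758 for WS, and at the 60th percentile 86, 397, 320 and 208, against 159, 630, 505 and 342. With the pseudocount, CAMTA.1.2 had 103. The scaling moved CAMTA.1 against WS by 0.13 in log2; with values as deposited, 25.8% of its differing probe sets were higher, against 39.4%, and for WS against Col-0 48.7%, against 38.3%.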
